A study of Homo sapiens with 31 samples.

Results

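The 4 libraries described here are of PANC-1 cells, an established human pancreatic cancer cell line: 2 from cells labelled KHSRP knockout (KO) after 2 h of actinomycin D and 2 from the same label at 0 h. They were taken by their titles, and they are 4 of the 20 libraries of an actinomycin D time course and of the 31 samples of the series. The time course has 2 libraries for each of 0, 2, 4, 6 and 8 h in KO cells and in cells titled NC, whose genotype label is wild type. Every group therefore carries the same agent label, with 0 h as the start of exposure. Whether the KO cells are 1 clone, and whether the replicates are separate cultures, is not said in the labels; the spread behind each p-value may thus be technical only. The title and design text of the series name KHSRP as a reader of N6-methyladenosine (m6A), a methyl mark on mRNA, and ask how KHSRP affects gene expression and transcript lifetime. The comparison of 2 h with 0 h asks which transcripts lost or gained share early after transcription was blocked in the cells labelled KO.

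Actinomycin D binds DNA and stops RNA polymerases from elongating, so transcripts then disappear at the pace of their own decay. KHSRP is a KH-domain protein that binds AU-rich elements in mRNA and is known to recruit deadenylases and the exosome. Transcripts of immediate early genes, cytokines and cell-cycle regulators are typically short-lived, while those of ribosomal proteins, metabolic enzymes and structural proteins are typically stable.

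The tables hold read counts for 43682 genes, and their totals were 21713285 and 19177934 counts at 0 h and 23422310 and 25114206 counts at 2 h. Of the markers of ductal epithelium, KRT8, KRT18 and KRT19 were abundant and CFTR was at 0 counts in all 4 libraries. EPCAM was at 5.76 to 8.19 and CDH1 at 2.21 to 3.15 CPM (counts divided by the library total and put on a common scale, here without further scaling). Of the markers of other cell types, 5 of 13 immune genes (PTPRC, CD3D and CD3E among them), 2 of 11 fibroblast genes (DCN one of them), 1 of 9 endothelial, 6 of 8 acinar and 6 of 9 endocrine genes were at 0 counts in all 4. The summed immune level was 199.6 to 202 CPM at 0 h and 210.4 to 218 at 2 h, nearly all CD68, a lysosomal protein. The summed fibroblast level was 54.9 to 61.8 and 46.0 to 48.3 CPM, led by COL1A1, and the endothelial 68.4 to 73.1 and 75.6 to 78.6 CPM, led by ENG. The endocrine sum was 8.47 to 8.50 and 6.40 to 6.69 CPM, nearly all SYP, and the acinar sum was at most 0.276 CPM. The part of these markers in the results was not tested. The KO and NC libraries of this time course differed in more than KHSRP: CDKN2A, a cell-cycle inhibitor locus, had 0 counts in the 10 KO libraries and 2728 to 5476 counts in the 10 NC libraries. All are titled PANC-1, but whether the KO and NC cells are of the same parental line was not tested. The time labels did not follow the order in which short-lived transcripts would be lost. The median member of a list of 21 immediate early transcription factors was at 2.993 and 2.997 log2 CPM in the libraries labelled 0 h, at 2.91 and 2.68 in those labelled 2 h, and at 5.76 and 5.81 in those labelled 6 h. In KO cells 18 of these 21 genes had their highest mean at the 6 h label and 1 at the 0 h label. The groups are therefore called below by their labels, and whether the libraries labelled 0 h were untreated was not tested.

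Levels below are CPM after TMM scaling, which sets the libraries to a common average composition, and genes were tested with edgeR's quasi-likelihood F test, two-sided, at a Benjamini-Hochberg adjusted p of 0.05. KHSRP itself was at 139 and 149 CPM at 0 h and at 146 and 151 CPM at 2 h. These groups overlapped, and the log2 change was 0.05 (SE 0.05, adjusted p = 0.62). In NC libraries KHSRP was at 439 and 453 CPM at 0 h and at 395 and 415 CPM at 2 h. The KHSRP transcript was thus lower in libraries labelled KO than in NC, but not absent. Its paralogs, FUBP1 and FUBP3, did not pass the test either: FUBP1 changed by 0.01 (adjusted p = 0.93) and FUBP3 by 0.16 (adjusted p = 0.071).

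Of 17715 genes tested, 862 were higher at 2 h (4.87%) and 760 were lower (4.29%), together 9.16%. The changes were small: 26 of the risen genes (0.147%) and 51 of the lowered genes (0.288%) differed by at least 2-fold, and the median absolute log2 change was 0.28 among the genes called and 0.18 over all. In 4650 genes both 2 h libraries stood above both 0 h libraries (26.2%), and in 3777 both stood below (21.3%). With so few libraries a group many genes take such an order without a change, so these are not counts of changed genes. With 1 of the 4 libraries left out, 441 to 472 genes were higher and 381 to 478 lower, from a fit with fewer samples. Of the calls under TMM 53.1% were rises.

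These values are shares of each library and cannot show a loss common to most transcripts. The deposited tables also carry a molecule value per gene, which is a straight line of the authors' log2 RPKM with its own slope and intercept in each library. The origin of the slopes and intercepts was not given. The molecule values summed to 162 and 148 at 0 h and to 91.3 and 98.4 at 2 h, in units of 1e+09 molecules, a mean 38.7% below that at 0 h, and the groups did not overlap. In NC libraries the sums were 85.6 and 82.6 at 0 h and 111 and 79.4 at 2 h. The NC replicates at 2 h thus stood on both sides of the 0 h sums, so the scale can vary between replicates. On that scale the median gene changed by -0.72 in log2, 24 genes were higher and 10094 lower (limma, adjusted p under 0.05), and 0.237% of the calls were rises. When counts were scaled to ribosomal protein genes, 93 were higher and 2010 lower, and 4.42% of the calls were rises. Each rise below is thus a rise in share of counts. Of the genes that rose in share, 769 were lower on the molecule scale and 8 were higher there, while 744 of the 760 lowered genes were lower on both.

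**Figure D1:**
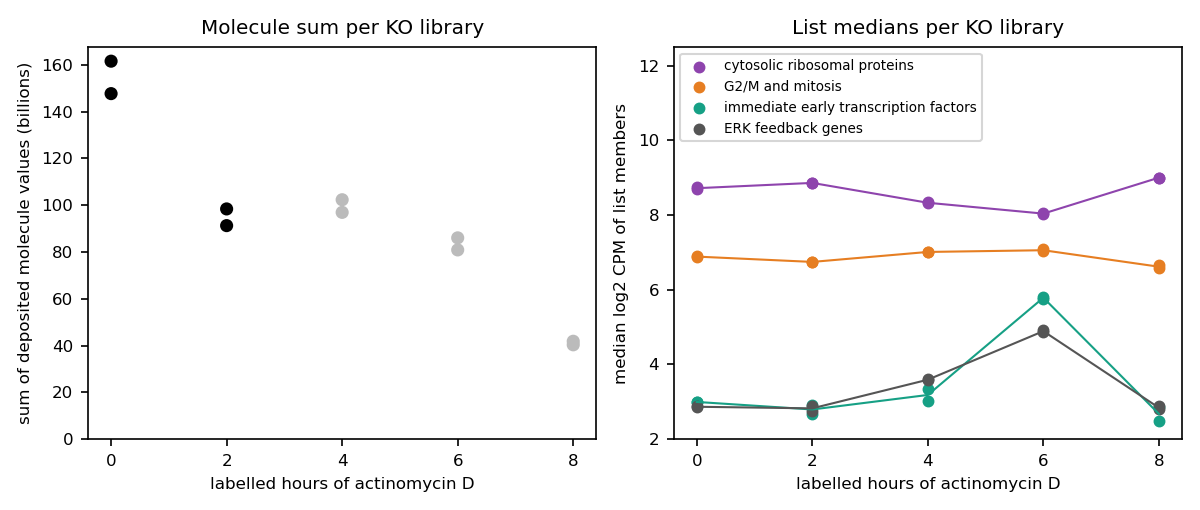
Left, the sum of the deposited molecule values of each of the 10 KO libraries (in units of 1e+09) against labelled hours of actinomycin D; black points are the 0 h and 2 h libraries, which lie at 148 to 162 and at 91.3 to 98.4. Right, the median log2 CPM of 4 gene lists in each KO library, with lines through group means; the immediate early and ERK feedback lists peak at the 6 h label.

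**Figure D2:**
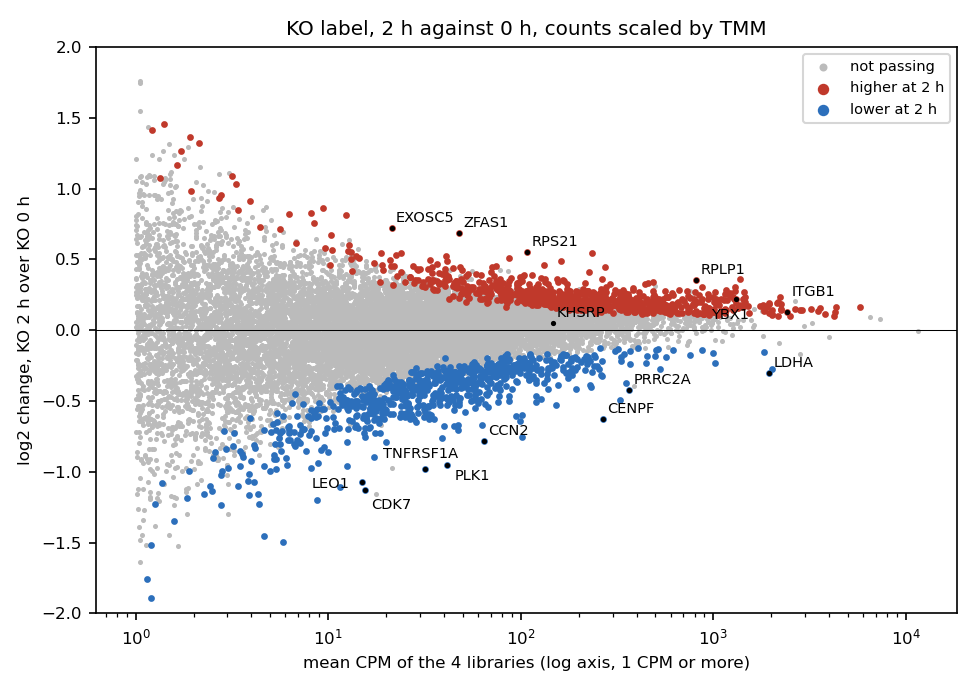
Log2 change at 2 h against mean CPM (log axis) for the 13509 genes with at least 1 CPM over the 4 libraries, with 4 genes beyond the y axis; red points were higher and blue points lower by the edgeR test. Rises of small size lie at high levels, and the larger falls among labelled genes, such as CDK7 and PLK1, lie below 100 CPM.

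Counts in the gene lists below are to be read against 4.87% higher and 4.29% lower over all genes tested. That share varied with level. Of 4 classes of equal size by mean CPM, the highest had 16.8% higher and 8.04% lower, and the lowest 0.113% and 0.294%. Transcripts of cytosolic ribosomal proteins formed the group with the highest share of rises among the lists. Of 78 tested, 46 rose in share (59.0%) and 0 fell. Their median log2 change was 0.16, against 0.01 over all genes, and on the molecule scale it was -0.67, against -0.72 over all genes. RPS21, a small-subunit protein (hg19 chromosome 20, 60962159 to 60963576, plus strand), stood at 80.7 and 94.8 CPM at 0 h and at 128 and 129 CPM at 2 h. Its log2 change was 0.55 (SE 0.07, adjusted p = 2.9e-07). RPS28, also of the small subunit, went from 106 and 116 to 142 and 144 CPM (0.37, SE 0.07, adjusted p = 0.00073). RPLP1, a protein of the large-subunit stalk, went from 666 and 765 to 895 and 932 CPM (0.35, SE 0.05, adjusted p = 2.1e-05). With 1 library left out, 26 to 36 of the 78 passed; the count was 26 without the first 0 h library and 30 without the second 2 h library. Scaled to the ribosomal protein genes themselves, 9 were higher and 4 lower. Ribosomal protein genes have many processed pseudogenes, so reads may have been divided between copies.

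Ribosomal protein transcripts are known for a 5′ terminal oligopyrimidine start, a C followed by a run of C and T, which links their translation to growth signalling. In RefSeq promoter windows (GRCh38.p14) a C at the annotated start followed by at least 4 bases of C or T, on the gene's strand, was found in 42 of 62 ribosomal protein genes with a window (67.7%), in 4.04% of all 27305 windows and in 5.20% of the tested genes with a window. Among ribosomal protein genes that rose the share was 26 of 35 (74.3%), and among those that did not pass it was 16 of 27 (59.3%). Over all genes that rose it was 9.81%, and 6.33% without the ribosomal proteins; among genes that fell it was 4.74%. The windows below show 15 bases before and 15 bases from the start, with the run in capitals, for 3 risen genes that have it. Those of RPS28, CENPF and PLK1, which rose or fell without such a run at the annotated start, follow. In RPS28 that start is an A followed directly by a run of C and T. The shares above thus depend on the exact annotated base.
RPS21 (GRCh38.p14, chr20:62387088-62387117, plus strand): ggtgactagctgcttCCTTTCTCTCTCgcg
RPLP1 (GRCh38.p14, chr15:69452803-69452832, plus strand): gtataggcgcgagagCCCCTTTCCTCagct
ZFAS1 (GRCh38.p14, chr20:49278627-49278656, plus strand): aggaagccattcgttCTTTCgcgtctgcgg
RPS28 (GRCh38.p14, chr19:8321481-8321510, plus strand): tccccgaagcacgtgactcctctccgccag
CENPF (GRCh38.p14, chr1:214603180-214603209, plus strand): agtttggttgagaccagaagcgggcgaatt
PLK1 (GRCh38.p14, chr16:23678874-23678903, plus strand): ggagcggagcggtgcggaggctctgctcgg

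Among nuclear genes of oxidative phosphorylation, 11 of 32 rose in share (34.4%) and 0 fell, with a median log2 change of 0.16 and of -0.66 on the molecule scale. NDUFB8, a subunit of complex I, was at 85.1 and 84.7 CPM at 0 h and at 106 and 108 CPM at 2 h (0.33, SE 0.07, adjusted p = 0.0012). It was named for its change, so the lack of overlap between its groups is no support. With 1 library left out 5 to 9 of the 32 passed, 7 without either 0 h library and 5 without the second 2 h library, and with ribosomal protein scaling 0 rose and 2 fell. ZFAS1, a long noncoding RNA that hosts snoRNAs (hg19 chromosome 20, 47894715 to 47905797), was 1 of 4 risen genes among 30 nuclear and snoRNA-host noncoding RNAs, of which 1 fell. Between 2 and 3 rose with 1 library left out, 2 without the first 0 h or the second 2 h library. ZFAS1 stood at 35.0 and 38.3 CPM at 0 h and at 60.3 and 57.7 CPM at 2 h (0.69, SE 0.09, adjusted p = 6.6e-07). The 1 that fell was NORAD, an abundant cytoplasmic noncoding RNA that binds Pumilio proteins, at 122 and 120 CPM and then 80.6 and 74.4 CPM (-0.64, SE 0.05, adjusted p = 2.8e-12). EXOSC5, a subunit of the RNA exosome, rose from 15.6 and 16.8 to 27.3 and 25.99 CPM (0.72, SE 0.13, adjusted p = 0.0003). PLXNA2, a semaphorin receptor, rose from 6.30 and 5.48 to 11.7 and 9.24 CPM (0.83, adjusted p = 0.0049), a call lost without the second 0 h library (adjusted p = 0.0732) or the first 2 h library (adjusted p = 0.114). EXOSC5 and PLXNA2 are among the 15 largest rises in genes with a mean of at least 10 CPM in either group and with separate groups. PLXNA2 met that limit only at 2 h, with means of 5.89 and 10.5 CPM.

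Genes of G2 and mitosis lost share. Of 32 tested, 15 fell (46.9%) and 1 rose, the median log2 change was -0.21, and with 1 library left out 10 to 12 fell. PLK1, the polo-like kinase that drives mitotic entry (hg19 chromosome 16, 23690210 to 23701688, plus strand), was at 56.6 and 52.3 CPM at 0 h and at 27.7 and 28.7 CPM at 2 h. Its log2 change was -0.95 (SE 0.07, adjusted p = 3.3e-12). CENPF, a kinetochore protein, went from 325 and 323 to 217 and 203 CPM (-0.63, SE 0.04, adjusted p = 2.5e-13). TTK, the spindle checkpoint kinase MPS1, went from 48.7 and 49.0 to 33.0 and 28.2 CPM (-0.68, SE 0.10, adjusted p = 5e-06). The 1 member that rose was BIRC5, or survivin, from 191 and 189.5 to 218 and 216 CPM (0.19, SE 0.05, adjusted p = 0.0048), named after its value was seen; it changed by -0.59 on the molecule scale and by 0.05 (adjusted p = 0.629) with ribosomal protein scaling. G1/S and DNA replication genes were divided, with 6 of 33 higher and 3 lower. Leaving out 1 library gave 2 to 4 rises and 1 to 3 falls, the fewest rises (2) without the first 2 h library and the fewest falls (1) without the second 0 h library. With ribosomal protein scaling 0 rose and 12 fell.

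**Figure D3:**
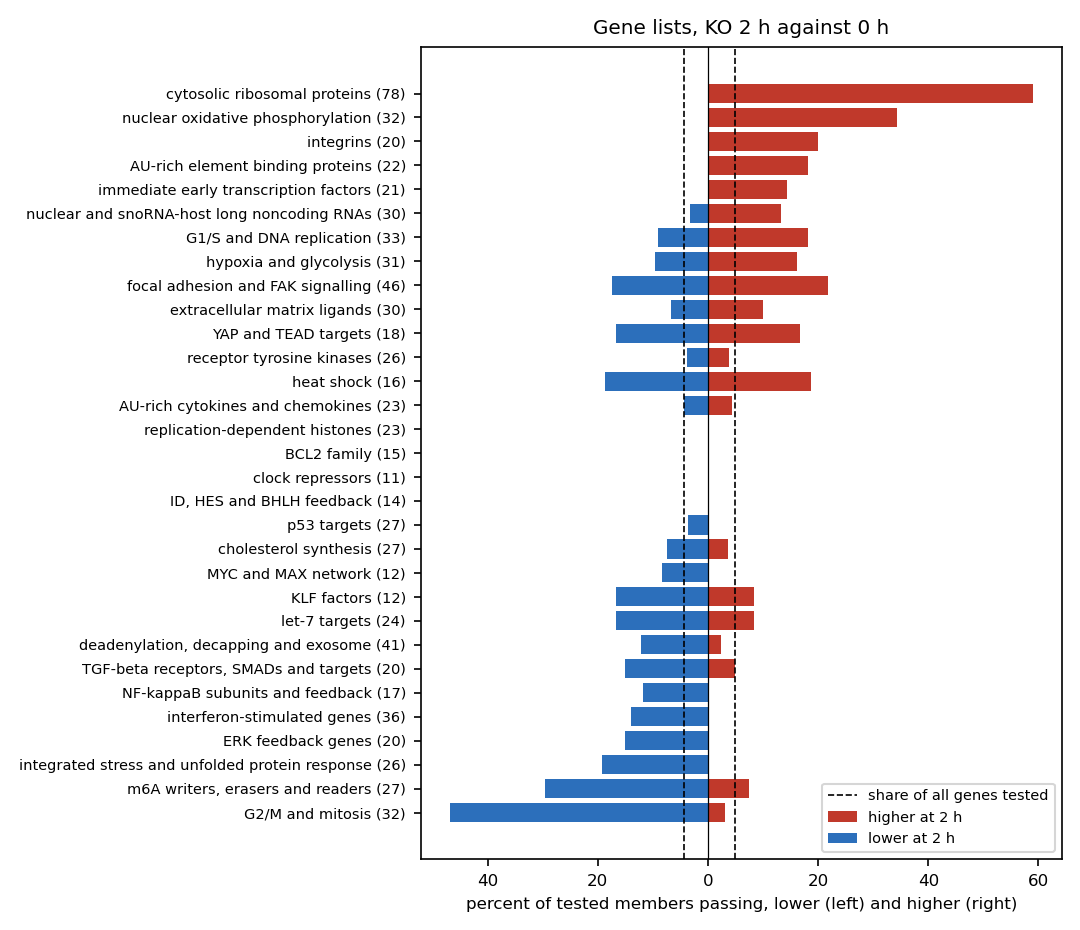
Percent of tested members of each gene list that were higher (red, right) or lower (blue, left) at 2 h in KO libraries, for lists with at least 10 tested members (number in parentheses); dashed lines mark 4.87% higher and 4.29% lower over all genes tested. Ribosomal proteins and oxidative phosphorylation stand furthest to the right, and G2/M and m6A genes furthest to the left.

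The largest falls at 10 CPM or more were in genes of moderate level and mixed function. CDK7, the kinase of TFIIH that phosphorylates RNA polymerase II, was at 21.2 and 21.6 CPM at 0 h and at 9.44 and 10.1 CPM at 2 h (-1.13, SE 0.14, adjusted p = 5.1e-07). LEO1, a subunit of the PAF1 elongation complex, was at 20.8 and 19.7 and then at 10.4 and 8.89 CPM (-1.07, SE 0.14, adjusted p = 9.7e-07). TNFRSF1A, the main receptor of tumour necrosis factor (hg19 chromosome 12, 6437937 to 6451242, minus strand), was at 44.4 and 39.8 and then at 19.98 and 22.8 CPM (-0.98, SE 0.10, adjusted p = 8.4e-09). Groups that do not overlap were a condition for naming these falls, so their separation is no support. ZBTB22, a zinc finger and BTB protein, fell by 1.20, TMEM51, a membrane protein, by 1.11, and GEMIN4, of the complex that assembles spliceosomal snRNPs, by 0.90 on the log2 scale. GCLC, the catalytic subunit of glutathione synthesis, fell by 0.79. These 4 genes had adjusted p between 3.9e-07 and 0.00042. CDK7 and ZBTB22 are listed on more than 1 contig of the build, as are IER3, PRRC2A, RBM15B and DDX6 below, and the counting of reads from the copies is not stated.

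Factors listed as writing, erasing or reading m6A fell more often than they rose. The list also holds PCIF1, whose mark lies at the cap-adjacent adenosine. Of 27 tested, 8 fell (29.6%) and 2 rose, with a median log2 change of -0.14, but with 1 library left out, each in turn, 4 or 5 fell and 0 or 1 rose. PCIF1, which methylates the cap-adjacent adenosine, was at 16.9 and 15.5 CPM and then at 9.90 and 10.9 CPM (-0.64, SE 0.14, adjusted p = 0.002). RBM15B, an adaptor of the writer complex, was at 41.8 and 40.7 and then at 26.8 and 27.7 CPM (-0.60, SE 0.10, adjusted p = 4e-05). PRRC2A, a reader, was at 428 and 410 and then at 308 and 318 CPM (-0.42, SE 0.04, adjusted p = 1.6e-08). In all 3 the groups were separate with 2 h below 0 h, as in 21.3% of all genes tested. The 3 were named for the size of their change, so their separation is no support.

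Of 41 genes of deadenylation, decapping and the exosome, 5 fell and 1 rose, and 1 to 4 fell with 1 library left out. The falls were 12.2% of the list and the rise 2.44%, against 4.29% and 4.87% over all genes tested. DDX6, the decapping activator helicase, fell from 150 and 152 to 124 and 126 CPM (-0.28, SE 0.06, adjusted p = 0.0018). CNOT8, a deadenylase of the CCR4-NOT complex, went from 17.8 and 23.1 to 14.2 and 14 CPM (-0.53, adjusted p = 0.0071), a call lost without the second 0 h library (-0.33, adjusted p = 0.268) or the second 2 h library (adjusted p = 0.0675). Among 22 proteins that bind AU-rich elements, KHSRP included, 4 rose in share (18.2%) and 0 fell. In the highest class of all genes by mean CPM 16.8% rose. The median log2 change of the list was 0.04, or -0.10 with ribosomal protein scaling and -0.69 on the molecule scale. The counts of this list depended on the fit: 0 rose and 6 fell with ribosomal protein scaling, 4 rose and 2 fell with DESeq2 or with only the 4 libraries, and 4 rose and 3 fell with only the 10 KO libraries. With 1 library left out 2 or 3 rose, 2 without the first 2 h library. YBX1, an abundant cytoplasmic mRNA-binding protein, was at 1205 and 1216 CPM at 0 h and at 1418 and 1409.8 CPM at 2 h (0.22, SE 0.03, adjusted p = 5.3e-06).

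Integrins and the FAK pathway are named in the title of the series, so these lists are not independent of its samples. Of 20 integrin subunits 4 rose in share and 0 fell, with a median log2 change of 0.19 and of -0.60 on the molecule scale, and 0 passed with ribosomal protein scaling. ITGA3, the alpha 3 laminin receptor subunit, was at 2036 and 2000.4 CPM at 0 h and at 2317 and 2326 CPM at 2 h (0.20, SE 0.04, adjusted p = 0.00012). ITGA6 rose by 0.20 (adjusted p = 0.00034) and ITGAV, the alpha V subunit, by 0.19 (adjusted p = 0.0013). ITGB1, the common beta 1 subunit, was at 2389 and 2248 and then at 2547 and 2513 CPM (0.13, SE 0.03, adjusted p = 0.0089), a call lost without the second 0 h library (0.08, adjusted p = 0.254) or the first 2 h library (adjusted p = 0.0874). PTK2, which encodes FAK, was at 152 and 153 CPM and then at 147 and 145 CPM (-0.06, adjusted p = 0.64). MET changed by 0.06 (adjusted p = 0.58). Of 46 focal adhesion genes 10 rose and 8 fell, but 1 to 4 rose and 2 to 5 fell with 1 library left out. SRC, the kinase that works with FAK, was at 14.3 and 12.1 and then at 8.52 and 7.78 CPM (-0.70, adjusted p = 0.0091), a call lost without the first 0 h library (adjusted p = 0.147) or the second 2 h library (adjusted p = 0.107).

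Targets of YAP and TEAD were divided, with 3 of 18 lower and 3 higher (16.7% each). CCN2, a secreted matricellular protein, fell from 77.3 and 85.5 to 47.7 and 46.7 CPM (-0.79, SE 0.07, adjusted p = 2.5e-10). CCN1, its relative, fell from 94.9 and 84.2 to 65.6 and 60.8 CPM (-0.51, SE 0.06, adjusted p = 5.1e-07). AXL, a receptor tyrosine kinase, rose in share from 535 and 568 to 663 and 662 CPM (0.26, SE 0.04, adjusted p = 2.1e-05).

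Immediate early genes, whose mRNAs are textbook examples of short life, did not fall at 2 h against 0 h by the test. Of 21, 3 rose and 0 fell, and the median log2 change was 0.07, or -0.07 with ribosomal protein scaling and -0.66 on the molecule scale. MYC was at 8.01 and 6.87 CPM and then at 7.50 and 5.71 CPM (-0.18, SE 0.15, adjusted p = 0.57). FOS was near 1 CPM in all 4 libraries, from 0.537 to 1.14, and changed by 0.19 (SE 0.34, adjusted p = 0.85). JUN changed by 0.24 (SE 0.12, adjusted p = 0.26). The levels of MYC and FOS overlapped between the groups, and FOS at this depth could not show a small change. EGR1, a zinc finger factor, rose from 2.53 and 2.31 to 4.65 and 4.12 CPM (0.85, SE 0.20, adjusted p = 0.0031), though the adjusted p was 0.0773 when only the 4 libraries were fitted. FOSB, an AP-1 subunit, rose from 1.72 and 2.04 to 3.41 and 3.74 CPM (0.93, adjusted p = 0.0056), a call lost without the first 0 h library (adjusted p = 0.105) or the second 2 h library (adjusted p = 0.0629). IER3 rose by 0.38 (adjusted p = 0.0062), lost without the second 0 h library (adjusted p = 0.0553) or the first 2 h library (adjusted p = 0.118).

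Of 12 KLF factors, 1 rose and 2 fell, and 1 fell without the first 0 h or either 2 h library. KLF4 was at 3.82 and 2.85 and then at 4.65 and 6.44 CPM (0.73, adjusted p = 0.008), a call lost without the second 0 h library (adjusted p = 0.166) or the second 2 h library (adjusted p = 0.272). KLF13 fell from 61.9 and 62.0 to 47.7 and 49.5 CPM (-0.35, SE 0.07, adjusted p = 0.00054). ERK feedback genes showed 3 of 20 lower and 0 higher, but 1 lower without the second 0 h or either 2 h library. ERRFI1, an inhibitor of EGFR, fell by 0.24 (adjusted p = 0.015), a call lost without the second 0 h or the second 2 h library (adjusted p = 0.203 each). DUSP2, a nuclear MAPK phosphatase also lowered, had 7 and 20 counts at 0 h and 0 and 5 at 2 h.

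Among 23 AU-rich cytokines and chemokines, the class for which KHSRP is best known, 1 rose and 1 fell, a share near that of all genes. EREG, a ligand of EGFR, was at 198 and 188 and then at 232 and 230 CPM (0.26, adjusted p = 0.0044), a call lost without the second 0 h library (adjusted p = 0.0871). CXCL8 was at 24.0 and 19.3 and then at 28.5 and 25.3 CPM (0.31, SE 0.19, adjusted p = 0.37). The 1 lower call was IL6, with 8 and 4 counts at 0 h and 0 and 0 at 2 h. It had at most 8 counts in the 10 KO libraries and up to 211 in the NC libraries, through which it passed the filter on low counts. With DESeq2, with only the 4 libraries or only the 10 KO libraries, and without the first 0 h or either 2 h library, 0 of the list fell, and 2 fell without the second 0 h library. MCL1, a short-lived survival factor, changed by 0.08 (adjusted p = 0.44), and 0 of 15 genes of the BCL2 family passed. CDKN1A, the p53 target p21, changed by -0.16 (adjusted p = 0.23), and TGFBR1 by -0.10 (adjusted p = 0.43).

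Of 26 genes of the integrated stress and unfolded protein response, 5 fell and 0 rose, and 2 or 3 fell with 1 library left out. XBP1, its transcription factor, was at 12.6 and 11 CPM at 0 h and at 7.83 and 5.41 CPM at 2 h (-0.84, SE 0.15, adjusted p = 0.00012). Heat shock genes were divided, 3 of 16 each way (18.8% each), but 0 rose and 5 fell with ribosomal protein scaling. DNAJB1, a cochaperone of HSP70, fell from 61.4 and 55.2 to 34.8 and 38.4 CPM (-0.67, SE 0.08, adjusted p = 1.5e-07). Of 36 interferon-stimulated genes 5 fell and 0 rose, with a median log2 change of -0.27, and 2 to 4 fell with 1 library left out. IFIT2, an RNA-binding antiviral protein, was at 123 and 120 and then at 81.0 and 79.8 CPM (-0.60, SE 0.08, adjusted p = 4.6e-06). TRIM21, an antibody receptor in the cytosol, fell by 0.94 (adjusted p = 0.003), a call lost without the second 0 h library (adjusted p = 0.081) or the first 2 h library (adjusted p = 0.15).

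In metabolism, LDHA, lactate dehydrogenase A, fell from 2179 and 2131 to 1747 and 1744 CPM (-0.30, SE 0.03, adjusted p = 2.5e-10). Of 31 genes of hypoxia and glycolysis 5 rose (16.1%) and 3 fell (9.68%). With any 1 library left out 3 rose and 2 or 3 fell, and with ribosomal protein scaling 0 rose and 5 fell. SQLE, squalene epoxidase, fell from 33.1 and 37.3 to 23.9 and 23.0 CPM (-0.59, SE 0.10, adjusted p = 0.00015), 1 of 2 lowered among 27 genes of cholesterol synthesis, of which 1 was lower with any 1 library left out. In that cholesterol list 7.41% fell and 3.70% rose, near the 4.29% and 4.87% over all genes tested. Among 24 known let-7 targets 4 fell (16.7%), IL6 included, and 2 rose (8.33%). With 1 library left out 2 or 3 fell, 2 without the first 2 h library, and 1 or 2 rose, 1 without either 0 h or the second 2 h library. SMAD3, the TGF-beta effector, fell from 282 and 279 to 229 and 235 CPM (-0.27, SE 0.06, adjusted p = 0.0013), 1 of 3 lowered among 20 genes of that pathway, of which 1 was lower without the first 2 h library and 2 without each of the other 3. KRT8, the keratin of simple epithelium, rose in share by 0.16 (adjusted p = 0.00056), and by 0.02 (adjusted p = 0.827) with ribosomal protein scaling. Clock repressors (11 tested), ID and HES genes (14) and replication-dependent histones (23) had 0 members that passed. Histone mRNAs lack a poly(A) tail and the samples carry a label of polyA RNA, so their values describe little.

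The changed genes differed in length and level. Tested genes were put in 4 classes of equal size by listed length. In the shortest class 250 of 4428 genes rose and 66 fell, and in the longest 152 of 4429 rose and 320 fell. Of 4 such classes by mean CPM the highest held most calls, with 746 of 4429 higher and 356 lower and a median log2 change of 0.06; in the lowest 5 rose and 13 fell of 4428. Of 499 genes whose symbol begins with ZNF, mostly zinc finger factors, 1 rose (0.20%) and 12 fell (2.40%), against 861 (5.0%) and 748 (4.34%) of 17216 other genes. The median log2 changes were close, at -0.02 and 0.01. Whether the level of the ZNF genes set their share of calls was not tested. Log2 change and length had a Spearman rho of -0.11 across 17715 genes, which are not independent replicates.

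The later labels of the KO cells are given beside these values; they share the 0 h libraries. PLK1 was at 120 and 120 CPM at the 4 h label, at 148 and 154 at 6 h and at 20.2 and 19.9 at 8 h. TNFRSF1A was at 111 and 98.4, at 117 and 130, and at 12.4 and 14.2 CPM. RPS21 was at 71.3 and 76.5, at 67.8 and 65.4, and at 162 and 163 CPM. The libraries labelled 2 h thus stood between those labelled 0 h and 8 h for these 3 genes, and those labelled 4 h and 6 h lay on the other side of 0 h. CCN1 reached 1304 and 1292 CPM at the 6 h label. The molecule sum was 102 and 96.9 at 4 h, in units of 1e+09 molecules, 86.1 and 80.9 at 6 h, and 40.3 and 41.8 at 8 h.

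**Figure D4:**
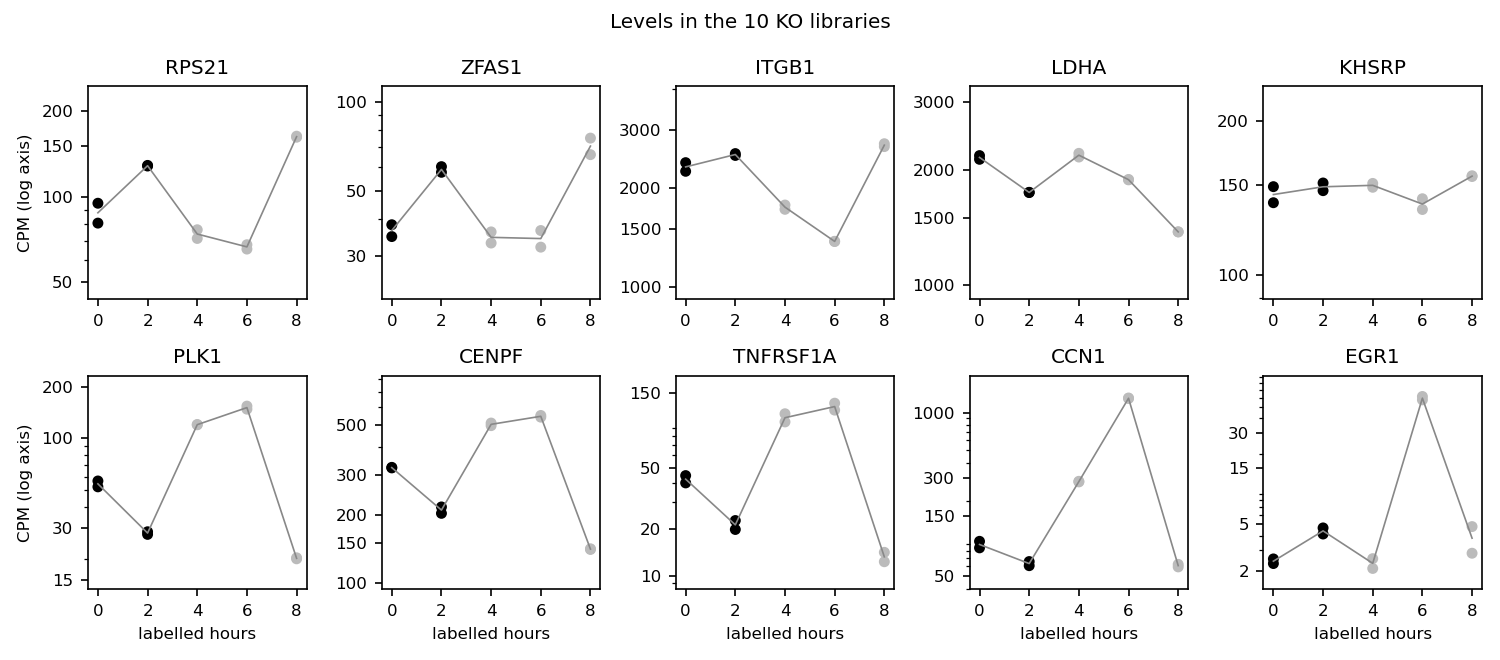
CPM (log axis) of 10 genes in the 10 KO libraries against labelled hours; black points are the 4 libraries compared, grey points the later labels, and lines join group means. RPS21 and ZFAS1 are higher at 2 h than at 0 h and PLK1, CENPF, TNFRSF1A and CCN1 lower, while the 4 h and 6 h labels lie elsewhere.

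The NC libraries, which share none with the KO comparison, were fitted the same way: 2985 genes were higher (16.9%) and 2642 lower (14.9%) at 2 h than at 0 h, 737 (4.16%) and 58 (0.327%) of them by at least 2-fold. The NC labels did not follow the order of loss either, and not in the same way as KO: 20 of the 21 immediate early genes had their highest NC mean at the 4 h label, where FOS was at 538 and 516 CPM, against 65.4 and 65.7 CPM at the KO 6 h label. Whether equal labels stand for equal times in KO and NC was not tested. Of the 862 genes that rose in KO, 704 were lower in NC (81.7% of the KO rises and 26.6% of the NC falls) and 9 were higher. Of the 760 that fell in KO, 598 were higher in NC (78.7% of the KO falls and 20.03% of the NC rises) and 7 were lower. The change itself differed between KO and NC, by the interaction contrast, in 827 of the 862 and 709 of the 760. Those genes were chosen by the KO change, which the contrast contains, so these 2 counts are in part fixed and no support. Over all genes the change differed in 5375 (30.3%), with KO above NC in 2666 and below it in 2709. TNFRSF1A showed one of the larger differences: in NC it was at 11.8 and 12.1 CPM at 0 h and at 47.6 and 50.04 CPM at 2 h, a log2 change of 2.03, so that KO minus NC was -3.01 (SE 0.15, adjusted p = 2.6e-19). RPS21 fell in NC from 192 and 193 to 144 and 123 CPM (-0.53), and KO minus NC was 1.08 (SE 0.09, adjusted p = 2.3e-12). PLK1 rose in NC from 118 and 118 to 152 and 155 CPM (0.38), and KO minus NC was -1.33 (SE 0.10, adjusted p = 3.3e-14). Since the 2 labels differ in more than KHSRP, this is a difference between the labelled libraries, and genotype and the other differences cannot be told apart. With ribosomal protein scaling 144 genes were higher and 6454 lower in KO minus NC, and on the molecule scale 37 and 9101.

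**Figure D5:**
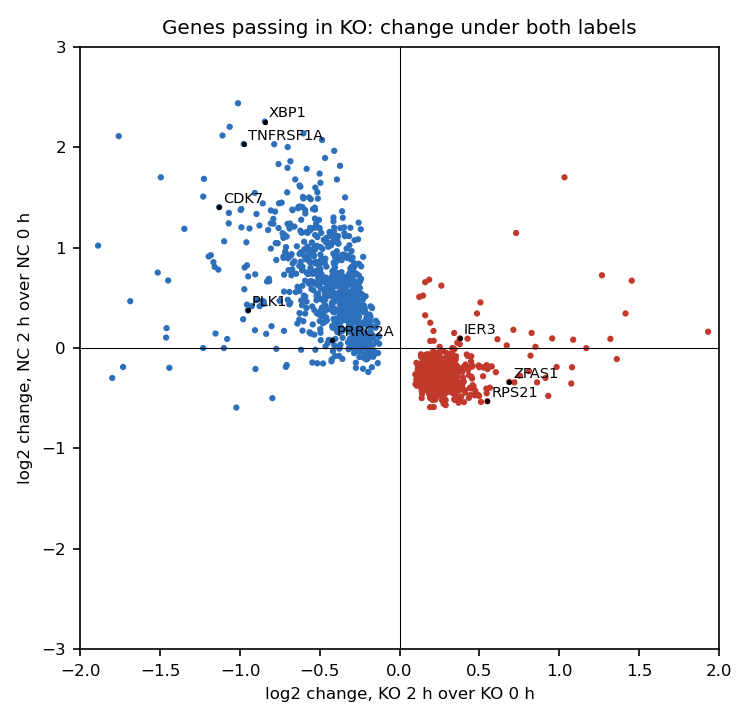
Log2 change at 2 h in NC (y axis) against that in KO (x axis) for the 1593 genes that passed in KO and reached 1 CPM at 0 h or 2 h, with 8 beyond the axes; red rose and blue fell in KO. Most red points lie below 0 in NC and most blue points above 0.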

How the data were processed

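The members and gene lists were chosen with earlier results of these data known. Polyadenylated RNA of 20 libraries titled PANC-1 was analysed, and groups came from the titles and labels. TRIzol RNA went into an mRNA library kit (Hieff NGS Ultima Dual-mode), per the labels' protocols. The submitters' processing notes name Bowtie2, STAR, RSEM, deepTools and hg19, without versions or roles; not given in the sources used here is which counter or annotation made the counts, or whether strand was used. The authors deposited counts, RPKM and log2 molecule values per gene, as the file headers name them. RPKM was used only to check that log2 molecule values are a straight line of log2 RPKM. The 37 mitochondrial genes were at 0 in all tables. Symbols were updated with RefSeq tables (42335 of 43682 current, 408 changed).

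Counts were tested with edgeR 4.0.16 (R 4.3.3; filterByExpr, TMM, robust quasi-likelihood F test, one mean per genotype and time over 20 libraries, Benjamini-Hochberg over 17715 genes); SE was taken as |log2 change| / sqrt(F). Log2 molecule values were tested with limma 3.58.1, with zeros as missing. DESeq2 1.42.0 was an alternative. The script was tested on simulated data. Chi-square per degree of freedom between replicates was 3.99 at 0 h and 4.08 at 2 h over genes with at least 20 counts, so each library was kept. Named genes came from a rule: those always named, the 15 largest rises and falls with at least 10 CPM and separate groups, up to 3 called members per list, and the 5 largest KO minus NC differences each way; a part of them is printed. The promoter table gave windows for 12493 tested genes. Steady-state and crosslinking samples are not analysed here, and some genes are not reported here.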

Additional observations from a re-analysis of the deposited data

Results flagged for a closer look

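The 2 h change of 51 of the 60 genes named differed between KO and NC libraries by the interaction contrast of the edgeR fit (adjusted p under 0.05), 32 with a lower and 19 with a higher change in KO. Over all genes tested 30.3% differed, 2666 higher and 2709 lower. Of the 60 named genes 48 had passed in KO, and many were named by their KO change. The contrast contains that same KO change, so the count of 51 follows in part from the naming and is no support. The values in parentheses are log2 differences, KO minus NC. A difference between the labels is not tied to KHSRP by this test.

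Negative values came mostly from genes that fell in KO and rose in NC. LDHA and PRRC2A did not pass in NC alone, and TGFBR1, CDKN1A, MYC and MCL1 did not pass in KO alone. Among receptors, membrane proteins and secreted factors they were TMEM51 (-3.23), TNFRSF1A (-3.01), CCN2 (-2.82) and CCN1 (-1.78). Among genes of transcription and RNA assembly they were XBP1 (-3.10), CDK7 (-2.54), LEO1 (-2.42), GEMIN4 (-2.23) and ZBTB22 (-2.11). In stress, metabolism and antiviral response they were TRIM21 (-2.13), GCLC (-2.08), DNAJB1 (-2.05), IFIT2 (-1.51), SQLE (-1.47) and LDHA (-0.34). Mitotic genes gave TTK (-1.45), PLK1 (-1.33) and CENPF (-0.98), and BIRC5 of the same list 0.78. Factors of mRNA methylation and decay gave CNOT8 (-1.73), RBM15B (-1.58), PCIF1 (-1.25), DDX6 (-0.82) and PRRC2A (-0.50), and the noncoding RNA NORAD -1.66. Signalling genes gave SRC (-1.59), ERRFI1 (-1.43), SMAD3 (-0.80) and TGFBR1 (-0.31). Short-lived regulators gave CDKN1A (-0.85), KLF13 (-0.83), MYC (-0.51) and MCL1 (-0.26).

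Genes with a higher change in KO included ribosomal and mitochondrial proteins, at RPS21 (1.08), RPS28 (0.91), RPLP1 (0.85) and NDUFB8 (0.68), and the RNA factors EXOSC5 (1.06), ZFAS1 (1.02), YBX1 (0.57), FUBP3 (0.36) and KHSRP (0.19). Adhesion, guidance and epithelial genes gave PLXNA2 (0.68), AXL (0.66), ITGA3 (0.66), ITGB1 (0.50), ITGA6 (0.47), ITGAV (0.37) and KRT8 (0.38). The early genes FOSB and EGR1 differed by 1.41 and 0.84.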

How the results depend on the processing

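Depth, 19177934 to 25114206 counts a library, limits what can be seen below about 1 CPM, and 2 libraries a group limit small changes. With 1 library left out, the lone library is assumed to vary like the other groups: 441 to 472 genes were higher, 381 to 478 lower and 15 to 24 at least 2-fold higher. Of 48 named genes past the threshold, 38 stayed past it without each library in turn and 10 did not. Scaling to ribosomal protein genes gave 93 genes higher, 2010 lower and 106 at least 2-fold lower, and 144 higher and 6454 lower for KO minus NC. The deposited molecule scale gave 24, 10094 and 2069, and 37 and 9101. A filter of 10 CPM left 14 genes at least 2-fold higher and 32 lower, fitting only the libraries compared left 17 and 32, and fitting only the 10 KO libraries, an alternative chosen after seeing the data, left 14 higher. The cause was not tested. Other changes of direction were as follows. With ribosomal protein scaling the log2 change was -0.0899 for KHSRP, -0.13 for FUBP1, -0.0638 for MCL1, -0.0159 for ITGB1 and -0.0804 for MET. On the molecule scale it was -0.72 for KHSRP, -0.76 for FUBP1, -0.60 for FUBP3, -0.32 for FOS, -0.47 for JUN, -0.31 for IER3, -0.40 for CXCL8, -0.50 for EREG, -0.69 for MCL1, -0.52 for AXL, -0.71 for ITGB1, -0.60 for ITGAV, -0.62 for ITGA3, -0.60 for ITGA6, -0.70 for MET, -0.60 for YBX1, -0.23 for RPS21, -0.40 for RPS28, -0.46 for RPLP1, -0.44 for NDUFB8, -0.0344 for ZFAS1, -0.70 for KRT8 and -0.59 for BIRC5. FUBP1 was at -0.00523 with no filter, -0.00763 with only the libraries compared and -0.00943 with only the KO libraries. With 1 library left out, FUBP1 ranged from -0.0131, without the second 0 h library, to 0.0513, FOS from -0.22, without the second 0 h library, to 0.86, and MYC from -0.38 to 0.0109, without the second 2 h library. With the replicate number as a block 866 genes were higher and 745 lower; same-numbered libraries did not deviate together (correlation -0.02 across 9742 genes), so the numbers were not taken as pairs. DESeq2 gave 937 and 922, and RLE scaling 754 and 798.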

Other observations

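A few features with low or uneven counts were chosen here after their values were seen, except RN7SK, FN1, LAMA1 and FERMT1, which the naming rule gave. RN7SK, a small nuclear RNA made by RNA polymerase III without a poly(A) tail, had 0 and 0 counts in the KO libraries at 0 h and 24 and 22 at 2 h, at least 12.9-fold higher against a floor of 3 counts over the group, and 36 and 16 at the 8 h label. In NC it had 219 and 264 counts at 0 h, 19 and 21 at 2 h, and 797 and 644 at 8 h.

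FN1, or fibronectin, had 24 and 32 counts at 0 h and 10 and 9 at 2 h in KO, against 1229 to 2203 in the 10 NC libraries. LAMA1, a laminin chain, had 32 and 21 and then 7 and 15, against 5260 to 6899 in NC. They were the 2 lowered genes of the extracellular matrix list, and 0 of that list were lower when only the 4 libraries or only the 10 KO libraries were fitted. FERMT1, an integrin activator, had 12 and 22 and then 34 and 48, against 831 to 1299 in NC. These 3 genes are thus near the floor in KO libraries and high in NC libraries.

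CD99, a surface glycoprotein of the pseudoautosomal region, had 87 and 161 counts at 0 h and 2180 and 132 at 2 h, so that 1 library of a pair held most of the counts. MTCO3P12, a nuclear copy of a mitochondrial gene, had 487 and 479 counts at 0 h and 239 and 255 at 2 h.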
